A study of Mus musculus with 41 samples.

Results

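The oxidative phosphorylation genes are described here in E14 mouse embryonic stem cells, in lines labelled as depleted for Esrrb and in WT, as the cells left the naive state. Members were the protein-coding genes whose symbols mark subunits of respiratory complexes I to IV and of the ATP synthase (complex V), in the nuclear or the mitochondrial genome, with at least 1 CPM (reads scaled to a library of 1000000) in at least 3 libraries. Of 107 matching genes 98 passed, among 16967 genes that passed the same filter and 55487 in the table. They were 91 nuclear genes (35 of complex I, 4 of II, 8 of III, 19 of IV, 17 of V and 8 complex I assembly factors of the Ndufaf series) and 7 mitochondrial genes (mt-Nd1, mt-Nd2, mt-Nd4, mt-Nd5, mt-Nd6, mt-Cytb and mt-Co1). The 9 that did not pass were mt-Co2, mt-Co3, mt-Atp6, mt-Atp8, mt-Nd3, mt-Nd4l, Ndufs5, Cox4i2 and a second identifier of Atp5o.

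The 41 libraries came from the line labelled KO3 (11 libraries), the line labelled KO2 (15) and WT cells (15). KO3 and KO2 are E14 lines genetically depleted for Esrrb, and WT is E14 with Esrrb intact. Each line was sampled in 2iL, which is N2B27 with the GSK3 inhibitor CHIR99021, the MEK inhibitor PD0325901 and LIF (3 libraries per line). Each was also sampled after 1 day in plain N2B27 and then 1, 3 or 5 days in AloXR, which adds to N2B27 activin A, XAV (which blocks tankyrase) and BMS439 (an inverse agonist of retinoic acid receptors). AloXR groups held 4 libraries, except KO3 at day 3 and day 5 with 2 each. Whether libraries of 1 group were grown as separate cultures is not said in the labels, so p-values measure the spread between these libraries, which may be technical. With 1 WT line and 2 depleted lines, other differences between the lines cannot be told apart from the loss of Esrrb.

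The respiratory chain passes electrons from NADH (complex I) and succinate (complex II) through complex III and cytochrome c to oxygen at complex IV, and the proton gradient built by complexes I, III and IV drives ATP synthesis at complex V. Complex II is encoded by nuclear genes alone, while the other complexes join nuclear subunits with subunits made inside the mitochondrion. In mouse embryonic stem cells, naive cells use both respiration and glycolysis, primed cells lean on glycolysis, and Esrrb has been linked to mitochondrial gene expression.

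Esrrb itself (chr12:86361117-86521628, plus strand, GRCm38) gave the check of the labels. In 2iL it stood at 102.8, 135.6 and 165.6 CPM in KO3 and at 51.99, 55.19 and 56.70 CPM in KO2, against 434.4, 380.8 and 308.9 CPM in WT. Both depleted lines lay below WT (log2 change -2.11 ± 0.27, adjusted p = 4.73e-08; limma with Benjamini-Hochberg adjustment, SE of the fit, here and below). At day 1 of AloXR the line labelled KO3 held 26.1 to 41.4 CPM, KO2 1.64 to 5.52 CPM and WT 12.1 to 17.7 CPM, so that the line labelled KO3 went against its label at day 1 (1.11 above WT on the log2 scale, adjusted p = 0.00197) and again at day 3 (1.33, adjusted p = 0.00256). At day 3 the lines held 4.87 and 6.17 CPM in KO3 and 1.16 to 3.20 CPM in KO2, against 1.19 to 1.83 CPM in WT, and both depleted lines together were called higher than WT (0.74, adjusted p = 0.0265). KO2 was not called against WT at day 3 (0.15, adjusted p = 0.763) or day 5 (-0.22, adjusted p = 0.627). By day 5 no library of any line held more than 1.69 CPM. Which part of Esrrb was removed is not stated in the labels, and a 3′ tag outside that part checks nothing. The related receptor Esrra did not differ in 2iL or at day 1 beyond the threshold, and fell in the depleted lines by 0.73 (adjusted p = 0.00206) at day 3 and by 0.53 (adjusted p = 0.0222) at day 5.

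The sequences of some mitochondrial genes bear on which of them carry values. A stretch of 60 bases near the end of mt-Co2 (chrM:7634-7693, plus strand, GRCm38), a catalytic subunit of complex IV, is shown beside that of Gm28661, a nuclear copy on chromosome 1 (chr1:24614885-24614944, minus strand).
mt-Co2: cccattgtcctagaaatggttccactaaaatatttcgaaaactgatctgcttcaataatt
Gm28661: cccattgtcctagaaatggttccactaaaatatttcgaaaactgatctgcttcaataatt
Over the aligned length of mt-Co2, 681 of 681 bases were identical, and mt-Co2 was listed at 0 in every library. For mt-Nd2 (chrM:4892-4951, plus strand), a core membrane subunit of complex I, the copy Gm13339 (chr2:22590024-22590083, minus strand) differs at 3 of these 60 bases, set in capitals.
mt-Nd2: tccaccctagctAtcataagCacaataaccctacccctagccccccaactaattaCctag
Gm13339: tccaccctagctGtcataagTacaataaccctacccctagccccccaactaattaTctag
The gene mt-Nd2 averaged 1989 CPM and Gm13339 1.24 CPM. Likewise mt-Co3 was listed at 0 and matched Gm28437 at 783 of 783 aligned bases, mt-Atp6 averaged 0.0061 CPM and matched Gm10925 at 678 of 678, and mt-Nd4l was listed at 0 and matched Gm10222 at 294 of 294. The gene mt-Nd3 averaged 0.265 CPM while its copy Gm28438, identical at 344 of 345 aligned bases, averaged 18.7 CPM. How reads with more than 1 best match were treated is not given in the sources used here, so the levels of these genes are not known from the table. Among the 98 members, 65 shared no 50-base window of their last 300 transcript bases with another place in the genome, and 6 (Atp5g2, Atp5h, Atp5l, Cox7c, Ndufs3 and mt-Co1) shared at least 50% of them, so that their values are uncertain.

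Promoters were read for 73 of the 91 nuclear members with an entry in RefSeq (GRCm38.p6), over the 250 bases before the start. The core site AAGGTCA, which estrogen-related receptors are known to bind, occurred on either strand in 4 of the 73 (5.48%), against 3.54% of 10984 tested genes with a promoter. The longer TCAAGGTCA, which contains it, occurred in 1 member (1.37%), against 0.282% of those genes. The palindromic NRF1 site, long tied to respiratory genes, occurred in 5 members (6.85%), against 1.78%, and the ETS site CCGGAAGT in 3 (4.11%), against 6.27%. The pair below holds the core match, in capitals, in Ndufb4 (chr16:37654369-37654618, minus strand) and in Atp5g3 (chr2:73911327-73911576, minus strand). Ndufb4 was lower in the depleted lines at every time. Its match lies inside the gene as GENCODE places it (chr16:37647170-37654453), since the RefSeq start used here is further in. Atp5g3 was called at day 3 alone. Its match is to the opposite strand and, with the letters ga that follow, makes up the longer TCAAGGTCA, which no other member with a promoter held.
Ndufb4: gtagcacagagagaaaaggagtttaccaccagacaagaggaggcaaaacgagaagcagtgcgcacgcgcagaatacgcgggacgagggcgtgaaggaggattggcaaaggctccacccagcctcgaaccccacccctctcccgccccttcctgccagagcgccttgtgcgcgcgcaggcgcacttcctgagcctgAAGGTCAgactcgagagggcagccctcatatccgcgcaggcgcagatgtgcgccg
Atp5g3: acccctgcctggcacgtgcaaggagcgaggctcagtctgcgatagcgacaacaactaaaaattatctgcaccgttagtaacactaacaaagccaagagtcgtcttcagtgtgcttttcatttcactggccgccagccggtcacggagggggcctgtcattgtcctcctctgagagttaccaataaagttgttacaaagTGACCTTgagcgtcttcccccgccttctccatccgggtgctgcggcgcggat
A match is a description of these letters and not evidence of binding.

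Nuclear subunits took 1.41 to 2.28% of a library's reads (median 1.87%) and the 7 mitochondrial members 0.466 to 1.94% (median 1.15%). QuantSeq reads 1 tag per transcript and CPM are not divided by length. Among nuclear subunits of complex I the highest over all libraries was Ndufa6 (mean 290.2 CPM) and the lowest Ndufs3 (15.6 CPM). Complex II ran between Sdhb (196 CPM), the iron-sulphur subunit, and Sdhd (29.98 CPM), a membrane anchor whose single libraries spread between 4.09 and 74.6 CPM. The nuclear subunits of complex III ran between Uqcrq (370 CPM) and Uqcr11 (136 CPM), and those of complex IV between Cox7c (690 CPM) and the testis isoform Cox8c (0.335 CPM). In complex V, Atp5b, the catalytic beta subunit, averaged 1050 CPM and Atp5g2 2.19 CPM. Among the mitochondrial members mt-Cytb averaged 3309 CPM, mt-Nd1 3135, mt-Nd4 2517, mt-Nd2 1989, mt-Co1 492, mt-Nd5 277 and mt-Nd6, the one encoded on the light strand, 8.70 CPM.

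The summed level of the 83 nuclear subunits was lower in the depleted lines in 2iL, at day 3 and at day 5, with no overlap between libraries. In 2iL it was 19459 ± 328 CPM in KO3 and 19509.5 ± 680 CPM in KO2, against 21842 ± 1060 CPM in WT (SD, n = 3 each). At day 1 it was 15622 ± 200 CPM in KO3 and 18576 ± 1140 CPM in KO2, against 19033 ± 997 CPM in WT (SD, n = 4 each). Here KO3 lay below both other lines, and KO2 (17106 to 19879 CPM) overlapped WT (17904 to 20307 CPM). At day 3 the depleted libraries held 14908 to 16876 CPM, against 18192 to 19876 CPM in WT. By day 5 they held 14103 to 18303 CPM, against 19008 to 19777 CPM in WT, and KO3 lay below KO2 at both times. In these bulk libraries, fewer cells of a type and less RNA per cell cannot be told apart.

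**Figure D1:**
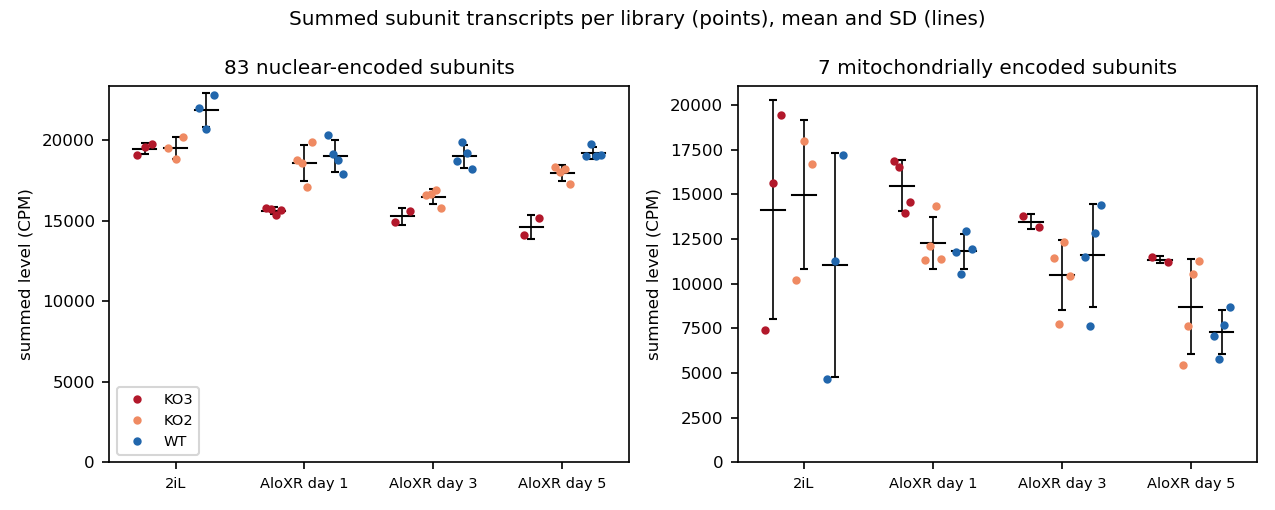
Summed level (CPM) of the 83 nuclear subunits (left) and the 7 mitochondrial members (right) by time, 1 point per library with the group mean and SD, for KO3, KO2 and WT. Nuclear sums of the depleted lines lie below WT in 2iL, at day 3 and at day 5, while mitochondrial sums in 2iL run between 4660 and 19414 CPM within and across lines.

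The mitochondrial sum of KO3 lay above WT at days 1 and 5, while that of KO2 overlapped WT. At day 1 it was 13956 to 16882 CPM in KO3 and 11297 to 14373 CPM in KO2, against 10531 to 12961 CPM in WT. At day 3 it was 13182 and 13770 CPM in KO3 and 7770 to 12317 CPM in KO2, against 7614 to 14379 CPM in WT, so that both depleted lines overlapped WT. At day 5 it was 11215 and 11475 CPM in KO3 and 5473 to 11255 CPM in KO2, against 5766 to 8683 CPM in WT. At days 1 and 5 the KO3 libraries were thus above all WT libraries, while their nuclear sums were below. At day 5 the nuclear sum divided by the mitochondrial sum was 1.23 to 1.35 in KO3 and 1.53 to 3.34 in KO2, against 2.19 to 3.43 in WT. In 2iL the 3 libraries of each line differed widely, with sums of 7414, 15612 and 19414 CPM in KO3 and 10207, 17978 and 16724 CPM in KO2, against 4660, 11261 and 17198 CPM in WT. The lowest was the first-listed library in each line, and the called 2iL comparisons of mitochondrial members below are given with all libraries and with the first-listed library of each line left out.

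Set against WT at the same time, the depleted lines had more members lower than higher at every time. A gene was called at an adjusted p under 0.05 with both lines on the same side of WT. In 2iL 8 members were higher and 21 lower, or 4 and 27 when centred on neighbours, where 21.6% of all tested genes were called (11.2% higher, 10.4% lower). At day 1 the counts were 5 and 36, where 19.9% of all genes were called (9.75% higher, 10.1% lower), and the 41 calls became 24 without WT replicate 1 of that day. At day 3 they were 4 and 50 (25.9% of all genes, 14.6% higher, 11.2% lower), and at day 5 they were 8 and 44 (31.4% of all genes, 14% higher, 17.4% lower). Members are abundant, and among 8495 genes with a mean of at least 10 CPM the shares called lower were 12.5, 13.9, 15.7 and 22% at the 4 times. The median log2 change of the members was -0.12, -0.17, -0.25 and -0.24, against 0.04, 0.02, 0.03 and 0.00 over all tested genes. Asking also for a change of at least 1.5-fold left 4 higher and 5 lower in 2iL (15.7% of all genes, 8.11% higher and 7.6% lower), 1 and 4 at day 1 (11.8%, 6.31% and 5.5%), 1 and 9 at day 3 (17.3%, 10.8% and 6.49%), and 2 and 15 at day 5 (20.6%, 8.89% and 11.7%). The 4 higher in 2iL hold Cox8c, which passed the filter through depleted 2iL libraries alone, and Cox8b, for which those libraries were enough. That count is thus partly set by the filter. At the 1.5-fold size 5.1, 4.08, 9.18 and 15.3% of members were lower, against 7.12, 5.11, 6.51 and 11.2% of the genes with a mean of at least 10 CPM. Most differences of the members were thus under 1.5-fold, and the lower counts past that size lay near the shares of such genes. Higher past that size were 6.52, 4.74, 7.8 and 7.82% of such genes. The 4, 1, 1 and 2 of 98 members that were higher lay below these shares, most clearly in AloXR.

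**Figure D2:**
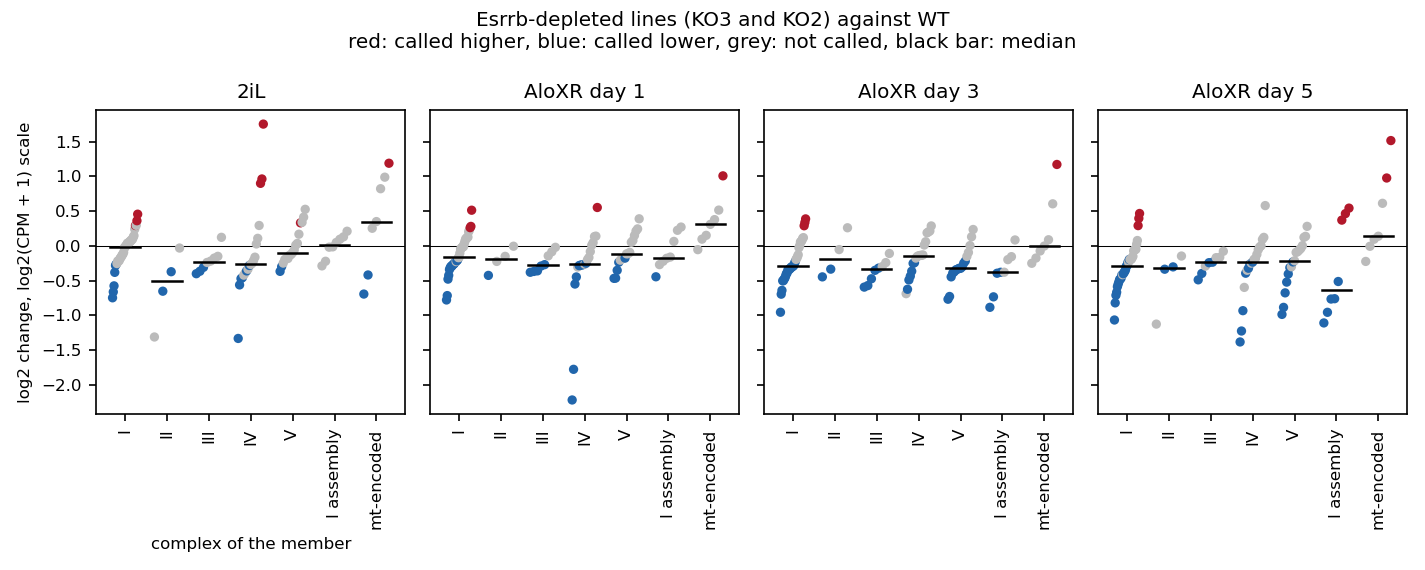
Log2 change of each member in the depleted lines against WT, by complex and genome, in 4 panels for 2iL and AloXR days 1, 3 and 5. Red points were called higher, blue called lower and grey not called, and black bars mark medians, which lie below 0 for the nuclear subunits at every time (-0.15, -0.18, -0.28 and -0.24).

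Members of the nuclear complexes called lower at all 4 times numbered 14: Ndufv2, Ndufs4, Ndufb4, Ndufb5 and Ndufa6 of complex I, Sdha of complex II, Uqcrc1, Uqcrc2 and Uqcrb of complex III, Cox5a, Cox5b and Cox7c of complex IV, and Atp5b and Atp5c1 of complex V. Ndufb10 was the only member called higher at all 4 times. The share of all genes called at all 4 times is not given here, so these counts are not set against other genes. Genes of these lists outside the rule for named genes (Ndufs4, Ndufb5 and Ndufa6) were singled out after their values were seen. Several calls at single times were lost when 1 library was left out. Without a KO3 library of day 3 or day 5, KO3 has 1 library at that time, which the fit assumes to vary like the libraries of the other groups. Ndufb5 was close to the threshold at day 1 (adjusted p = 0.0493) and was not called there without any 1 of KO3 replicates 1 to 3, KO2 replicates 1 to 3 or the 4 WT replicates (-0.24 to -0.19). Its 2iL call was lost without KO3 replicate 3, KO2 replicate 3 or WT replicates 1 or 2 (-0.24 to -0.22), and its day 3 call (adjusted p = 0.0478) without KO3 replicate 1, KO2 replicates 1, 3 or 4 or WT replicates 1 or 2 (-0.23 to -0.17). Atp5b was not called at day 1 without WT replicate 1 (-0.16, adjusted p = 0.103) or 2 (-0.17, adjusted p = 0.0797). At day 5 the lines of Atp5b lay on opposite sides of WT without KO2 replicate 1 (-0.22, adjusted p = 0.0062) or under TMM scaling (-0.17, adjusted p = 0.0349), and it was not called by edgeR (-0.17) or when centred on its neighbours (-0.09).

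Complex I joined falls of several subunits with rises of a few. Of its 35 nuclear subunits, 3 were higher and 6 lower in 2iL, 3 and 15 at day 1, 3 and 21 at day 3, and 3 and 19 at day 5, with medians of -0.02, -0.17, -0.29 and -0.29. Among genes with a mean of at least 10 CPM 12.6, 10.9, 15 and 17.5% were higher and 12.5, 13.9, 15.7 and 22% lower. The 2iL counts of complex I lay near these shares, and its rises did not exceed them at any time. Its summed level at day 3 was 4298 to 4900 CPM in the depleted lines, against 5142 to 5618 CPM in WT. Ndufv2 (chr17:66078638-66101559), an iron-sulphur subunit of the NADH-oxidising arm, held 158, 174 and 167 CPM in KO3 and 120.0, 99.8 and 107 CPM in KO2 in 2iL, against 188, 254 and 244 CPM in WT. At day 5 it held 144 and 142 CPM in KO3 and 117, 109, 96.6 and 106 CPM in KO2, against 256, 267, 250 and 268 CPM in WT. No depleted library reached a WT library at either time, and KO2 lay below KO3. The changes were -0.75 ± 0.10, -0.72 ± 0.09, -0.96 ± 0.10 and -1.07 ± 0.10 at the 4 times, the last with an adjusted p of 7.86e-12. Its 50 nearest measured genes on chromosome 17 had medians of 0.00, -0.10, -0.23 and -0.32 in the same comparison, and centred on them Ndufv2 remained called, at -0.74, -0.62, -0.73 and -0.75.

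Ndufb4 (chr16:37647170-37654453), an accessory subunit of the membrane arm, held 111.9, 97.8 and 90.1 CPM in KO3 and 110.4, 91.1 and 91.6 CPM in KO2 in 2iL, against 154, 162 and 153 CPM in WT. At day 5 it held 39.1 and 39.0 CPM in KO3 and 65.1 to 77.6 CPM in KO2, against 87.0 to 109 CPM in WT. The 3 lines did not overlap at day 5, with KO3 lowest. Changes against WT were -0.66 ± 0.15 (adjusted p = 0.00086), -0.42 ± 0.13 (0.0156), -0.70 ± 0.14 (0.000184) and -0.82 ± 0.14 (1.34e-05). The day 1 call was lost without WT replicate 1 (-0.34, adjusted p = 0.103) or 2 (-0.31, adjusted p = 0.131). Ndufs4, an accessory subunit joining the NADH arm to the rest of complex I, fell by 0.58, 0.48, 0.50 and 0.48, and its 2iL libraries held 150 to 167 CPM in KO3 and 126 to 140 CPM in KO2, against 192 to 235 CPM in WT. Ndufa6, the highest nuclear subunit of complex I, fell by 0.38, 0.30, 0.46 and 0.71. Its 2iL call was lost without KO3 replicate 3 (-0.27), WT replicate 1 (-0.26) or WT replicate 2 (-0.35). Its day 1 call was lost without KO3 replicate 3, KO2 replicates 2 or 3 or WT replicates 1, 2 or 3 (-0.32 to -0.25).

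Ndufb10 (chr17:24722060-24724478), another membrane-arm subunit, moved the other way. It held 113 to 124 CPM in KO3 and 142 to 152 CPM in KO2 in 2iL, against 93.5 to 97.6 CPM in WT, and changed by 0.46 ± 0.09 (adjusted p = 0.000273), 0.51 ± 0.08 (5.43e-06), 0.39 (0.000774) and 0.40 (0.000515) at the 4 times. At day 5 KO3 (58.0 and 68.6 CPM) overlapped WT (57.0 to 64.6 CPM) and KO2 (88.2 to 110.0 CPM) lay above both. Without KO3 replicate 2 the lines lay on opposite sides of WT at day 5 and Ndufb10 was not called (0.34, adjusted p = 0.0103). Ndufv3 (chr17:31520115-31531331), an accessory subunit of the NADH arm, was not called in 2iL or at day 1, and fell by 0.64 ± 0.09 at day 3 (adjusted p = 4.47e-07) and by 0.67 ± 0.09 at day 5 (2.09e-07). Its day 5 libraries held 70.3 and 87.2 CPM in KO3 and 121 to 144 CPM in KO2, against 143 to 193 CPM in WT. Ndufa5 was lower in 2iL (-0.28) and higher at day 5 (0.47, adjusted p = 7.89e-05), when it held 208 to 227 CPM in KO3 and 172 to 177 CPM in KO2, against 133 to 146 CPM in WT. The 2iL call of Ndufa5 was lost without KO3 replicate 1 (-0.26), KO2 replicate 2 (-0.24), WT replicate 1 (-0.24) or WT replicate 3 (-0.25). Ndufs3, a core subunit with uncertain counts, fell by 0.78 at day 1 (adjusted p = 3.05e-05).

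**Figure D3:**
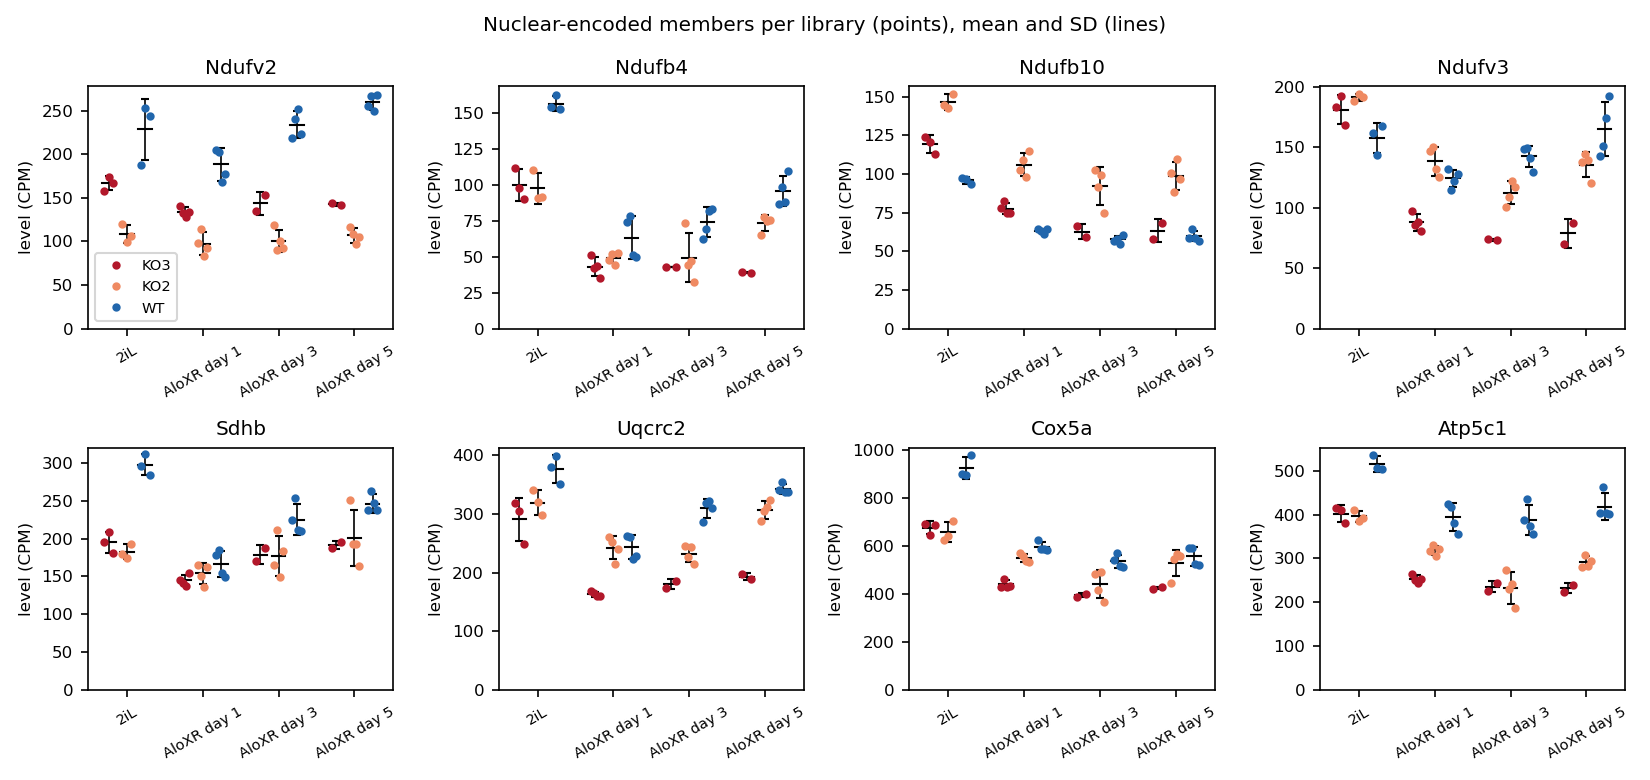
Level (CPM) of Ndufv2, Ndufb4, Ndufb10, Ndufv3, Sdhb, Uqcrc2, Cox5a and Atp5c1 by time, 1 point per library for KO3, KO2 and WT. Ndufv2 stays below WT in every depleted library, Ndufb10 is highest in KO2, and Ndufv3 in KO3 separates from the other lines once in AloXR.

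Complex II, the succinate dehydrogenase, had no member called higher at any time and 2, 1, 2 and 2 of its 4 members lower. Sdhb (chr4:140961203-140979193) held 196, 209 and 181 CPM in KO3 and 179.6, 174 and 193 CPM in KO2 in 2iL, against 296, 311 and 284 CPM in WT, with every depleted library below every WT library. The change was -0.65 ± 0.10 (adjusted p = 4.19e-06) in 2iL, -0.15 (adjusted p = 0.254) at day 1, -0.34 (0.00808) at day 3 and -0.34 (0.0064) at day 5. The day 3 call was lost without KO3 replicate 1 (-0.30, adjusted p = 0.0511) or WT replicate 2 (-0.28, adjusted p = 0.0553), and the day 5 call when centred on the 50 nearest genes (-0.16, adjusted p = 0.224). Sdha, the flavoprotein that oxidises succinate, fell by 0.37, 0.43, 0.45 and 0.30 (adjusted p = 0.00758 at day 5, and 0.0847 when centred on its neighbours, at -0.20). The summed level of complex II at day 1 was 369 to 414 CPM in the depleted lines, against 438 to 490 CPM in WT.

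Complex III, the cytochrome bc1 complex, likewise had no nuclear member called higher, and 3, 5, 5 and 4 of 8 lower. Uqcrc2 (chr7:120635176-120659524), a core protein, held 159 to 168 CPM in KO3 and 215 to 260 CPM in KO2 at day 1, against 224 to 262 CPM in WT. At day 3 it held 174 and 186 CPM in KO3 and 214 to 245 CPM in KO2, against 287 to 321 CPM in WT. KO2 overlapped WT at day 1 and lay below it at day 3. Changes were -0.31 (adjusted p = 0.0055), -0.29 (0.00282), -0.59 ± 0.08 (9.25e-08) and -0.49 ± 0.08 (4.47e-06). The 2iL call was lost without WT replicate 2 (-0.27, adjusted p = 0.0544). At day 1 the lines came to lie on opposite sides of WT without KO2 replicate 3 (-0.26), WT replicate 1 (-0.26) or WT replicate 2 (-0.26), and likewise under TMM scaling (-0.28, adjusted p = 0.00458), scaling to reads outside the mitochondrial genome (-0.28) and edgeR (-0.28). Uqcrfs1, the Rieske iron-sulphur protein, was not called in 2iL (adjusted p = 0.13) and fell by 0.38, 0.57 (adjusted p = 1.13e-05) and 0.40 at days 1, 3 and 5. Uqcrc1, the partner core protein, fell by 0.37, 0.37, 0.35 and 0.24, with its day 5 call lost without KO3 replicate 1 (-0.21), WT replicate 2 (-0.19) or WT replicate 3 (-0.22) and under TMM or edgeR (-0.18 by both). Uqcrb fell by 0.40, 0.36, 0.47 and 0.24, and its 2iL call (adjusted p = 0.00124) was lost when the first-listed 2iL library of each line was left out (-0.23, adjusted p = 0.128). Its day 1 change was -0.07 (adjusted p = 0.613) relative to its neighbours. Its day 5 call was lost without KO3 replicate 1 or WT replicates 1, 2 or 3 (-0.25 to -0.22) and under TMM, edgeR and centring (-0.19 to -0.18).

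Complex IV, cytochrome c oxidase, had a lower sum in 2iL, at 4652 to 5071 CPM in the depleted lines against 5341 to 5977 CPM in WT. Its 19 nuclear members gave 3 higher and 6 lower in 2iL, 1 and 9 at day 1, 0 and 6 at day 3, and 0 and 7 at day 5. Cox5a (chr9:57521274-57532426), which binds near the matrix side of the catalytic core, held 644 to 692 CPM in KO3 and 623 to 704 CPM in KO2 in 2iL, against 894 to 978 CPM in WT. The change was -0.47 ± 0.08 (adjusted p = 2.44e-05) in 2iL, and -0.28, -0.37 and -0.23 (adjusted p = 0.0175) at days 1, 3 and 5, when KO2 (446 to 567 CPM) overlapped WT (521 to 593 CPM). That day 5 call was lost without KO3 replicate 1 (-0.23, adjusted p = 0.0514), WT replicate 1 (-0.20, adjusted p = 0.0712) or WT replicate 2 (-0.21, adjusted p = 0.0668), and under TMM (-0.18), edgeR (-0.18) and centring (-0.14). Cox7c, with uncertain counts, fell by 0.56, 0.55, 0.44 and 0.39, and Cox5b, a zinc-binding subunit, by 0.36, 0.27, 0.25 and 0.26. Cox7a2l (chr17:83501918-83517330), the factor that joins complexes III and IV, fell by 0.93 ± 0.14 at day 5 (adjusted p = 1.76e-06) and by 0.57 (adjusted p = 0.00202) once centred on its neighbours, whose median was -0.37.

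Isoforms of complex IV with restricted expression are given next, at low levels whose changes log2(CPM + 1) understates. Cox7b2, known from testis, held 2.41 to 3.27 CPM in KO3 and 2.76 to 5.27 CPM in KO2 at day 1, against 16.3 to 24.3 CPM in WT (-2.22 ± 0.25, adjusted p = 3.06e-09), while its widespread partner Cox7b was called at day 3 (-0.49, adjusted p = 0.000145). Cox6a2, the heart and muscle form, held 26.03, 15.8 and 5.75 CPM in KO3 and 12.3, 8.52 and 2.72 CPM in KO2 in 2iL, against 3.19, 2.60 and 1.07 CPM in WT. The groups overlapped at their edges and the change was 1.75 ± 0.40 (adjusted p = 0.00114). Cox6b2, another testis form, held 23.2 and 19.02 CPM in KO3 and 22.7 to 46.7 CPM in KO2 at day 5, against 57.1 to 65.0 CPM in WT (-1.23 ± 0.19, adjusted p = 2.96e-06). Ndufa4l2, a paralogue of the complex IV subunit Ndufa4, held 0.214 to 0.437 CPM in KO3 and 0.233 to 1.26 CPM in KO2 at day 1, against 2.81 to 5.97 CPM in WT, and fell by 1.33, 1.78 and 1.39 in 2iL, at day 1 and at day 5. Ndufa4 rose by 0.55 at day 1 (adjusted p = 0.00813), and by 0.22 (adjusted p = 0.341) relative to its neighbours. Cox4i1, Cox6a1 and Cox7a1 are described with the WT course, and the isoforms Cox8b (at most 8.90 CPM) and Cox8c (at most 2.84 CPM) stayed low throughout. With Cox6a2 they were the 3 members of complex IV called higher in 2iL. Cox8b held 1.05 to 8.90 CPM in KO3 and 1.26 to 2.04 CPM in KO2, against 0.215 to 1.37 CPM in WT. The depleted 2iL libraries were enough by themselves for Cox8b to pass the 1 CPM filter. Its call is thus counted, but its test is not given. Cox8c held 0.222, 0 and 1.39 CPM in KO3 and 0.584, 2.84 and 2.09 CPM in KO2, against 0 CPM in each WT library. It passed the 1 CPM filter through 3 of these depleted libraries alone, so that, though counted among the 8 and the 3 higher, it had to differ here and its test is not given. The counted Cox8b call was also lost without KO3 replicate 1, WT replicate 2 or WT replicate 3, and by edgeR.

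Complex V, the ATP synthase, had 1 member higher and 2 lower in 2iL, and 0 higher with 5, 12 and 7 lower at days 1, 3 and 5, of 17. The 2iL counts lay near the shares of all genes (11.2% higher, 10.4% lower). Atp5c1 (chr2:10056016-10080510), the gamma subunit that turns within the catalytic head, held 226 and 244 CPM in KO3 and 187 to 275 CPM in KO2 at day 3, against 355 to 435 CPM in WT. At day 5 it held 225 and 239.8 CPM in KO3 and 281 to 309 CPM in KO2, against 400.1 to 463 CPM in WT. Depleted libraries lay below every WT library at both times, and the changes were -0.37, -0.47, -0.73 ± 0.08 (adjusted p = 1.75e-09) and -0.68 ± 0.08 (1.35e-08). Atp5e (chr2:174461072-174464105), the epsilon subunit of the same rotor, was not called in 2iL (-0.13), where KO3 held 271 to 325 CPM and KO2 256 to 359 CPM, against 310.4 to 326 CPM in WT. By day 5 it held 181 and 193 CPM in KO3 and 190.5 to 239.5 CPM in KO2, against 334 to 401 CPM in WT (-0.89 ± 0.11, adjusted p = 4.49e-08). The 3 genes for the identical membrane ring subunit c gave 1 call in the 4 comparisons: Atp5g3, at 570 to 1170 CPM over all libraries, fell by 0.32 at day 3 (adjusted p = 0.0161), while Atp5g1 and Atp5g2 were not called. The Atp5g3 call was lost without KO3 replicate 1 (-0.30, adjusted p = 0.068) or WT replicate 2 (-0.29, adjusted p = 0.0609).

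The 8 assembly factors of complex I were not called in 2iL, gave 1 fall at day 1 and 4 at day 3, and split at day 5 into 3 higher and 5 lower. Ndufaf7 (chr17:78937136-78948052), a methyltransferase acting early in assembly, held 12.1 and 12.7 CPM in KO3 and 9.74 to 13.9 CPM in KO2 at day 5, against 25.01 to 28.1 CPM in WT (-1.11 ± 0.15, adjusted p = 1.36e-07). Relative to its neighbours the fall was 0.92 (adjusted p = 5.82e-06). Ndufaf3 held 10.6 and 15.6 CPM in KO3 and 19.6 to 30.3 CPM in KO2 at day 5, against 29.7 to 39.4 CPM in WT (-0.96, adjusted p = 3.63e-06), so that KO2 touched the WT range. Ndufaf5, which hydroxylates a complex I subunit, held 7.61 and 6.81 CPM in KO3 and 5.04 to 9.38 CPM in KO2 at day 3, against 12.1 to 16.2 CPM in WT (-0.89, adjusted p = 4.75e-05). The 3 that rose at day 5 were Ndufaf8 (0.54, adjusted p = 3.46e-05), Ndufaf2 (0.46, 0.00903) and Ndufaf4 (0.37, 0.0109), the last named after its value was seen. The Ndufaf2 call was lost without KO3 replicate 2 (0.39, adjusted p = 0.064).

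The 7 mitochondrial members gave 1 higher and 2 lower in 2iL, 1 and 0 at days 1 and 3, and 2 and 0 at day 5. The gene mt-Nd6 (chrM:13552-14070, minus strand), a membrane subunit of complex I, held 8.53 to 12.6 CPM in KO3 and 6.90 to 14.9 CPM in KO2 at day 1, against 2.98 to 5.42 CPM in WT. At day 5 it held 28.02 and 26.3 CPM in KO3 and 8.20 to 10.98 CPM in KO2, against 3.17 to 7.64 CPM in WT. The depleted libraries were above every WT library at each AloXR time, and the changes were 0.25 (not called) in 2iL, 1.01 ± 0.27 (adjusted p = 0.00455), 1.17 ± 0.29 (0.00175) and 1.52 ± 0.29 (6.4e-05). Cytochrome b, mt-Cytb (chrM:14145-15288, plus strand), held 3593 and 3652 CPM in KO3 and 1942 to 3863 CPM in KO2 at day 5, against 1352 to 1925 CPM in WT. These groups did not overlap (0.98 ± 0.31, adjusted p = 0.0147), though the call was lost without WT replicate 2 (0.87, adjusted p = 0.0527).

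In 2iL mt-Co1, the catalytic subunit of complex IV, held 731, 816 and 570 CPM in KO3 and 393, 589 and 454 CPM in KO2, against 1380, 1075 and 542 CPM in WT. It fell by 0.69 (adjusted p = 0.00158). The change was -0.41 (adjusted p = 0.079) without WT replicate 1 and -0.36 (adjusted p = 0.158) without the first-listed library of each line. The mt-Nd5 libraries held 429, 421 and 411 CPM in KO3 and 235, 304 and 271 CPM in KO2, against 502, 471 and 385 CPM in WT (-0.42, adjusted p = 0.0266). Its call was lost without KO2 replicate 1 (-0.37, adjusted p = 0.062), WT replicate 1 (-0.34, adjusted p = 0.168) or WT replicate 2 (-0.39, adjusted p = 0.108), and without the first-listed library of each line (-0.30, adjusted p = 0.281). The mt-Nd2 libraries held 902, 2474 and 3552 CPM in KO3 and 1293, 2950 and 2919 CPM in KO2, against 241, 1199 and 2719 CPM in WT. Its change of 1.19 (adjusted p = 0.0472) was 0.71 (adjusted p = 0.0718) without the first-listed, lowest library of each line. Leaving out WT replicate 1 alone, with the low libraries of KO3 and KO2 kept, gave 0.22. The call was also lost, at 0.98 to 1.38, without any 1 of KO3 replicates 2 and 3, KO2 replicates 2 and 3 or WT replicate 2. The level of mt-Nd4 was not called against WT at any time. Reads of all mitochondrial genes together averaged 4.30% in KO3 and 3.81% in KO2 at day 1, against 3.10% in WT, and 3.37% in KO3 and 2.83% in KO2 at day 5, against 2.34% in WT.

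**Figure D4:**
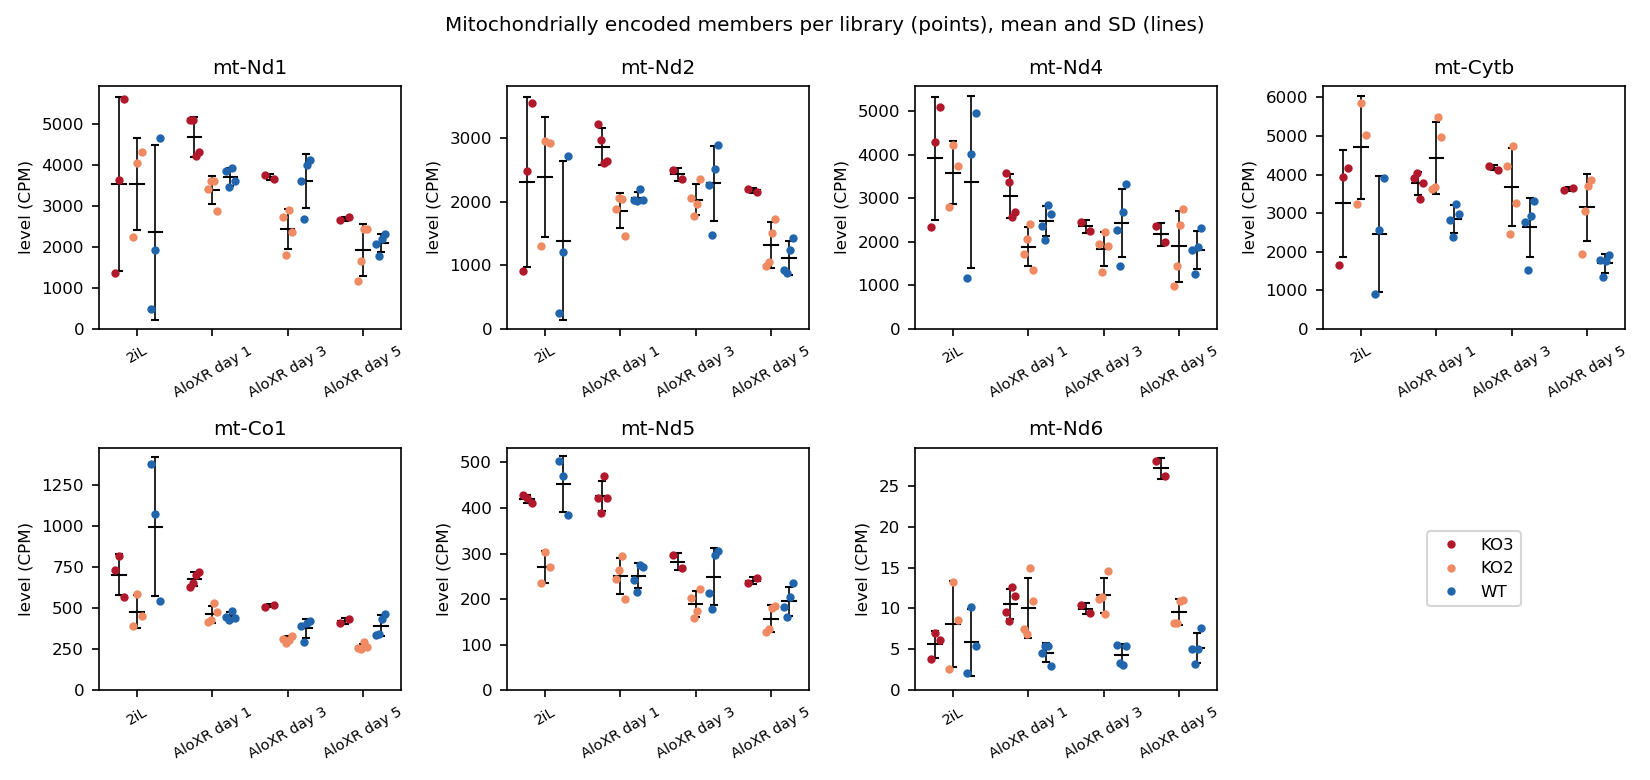
Level (CPM, 1 point per library) of the 7 mitochondrial members by time in KO3, KO2 and WT. Within 2iL the libraries of a line spread by several fold for mt-Nd1, mt-Nd2 and mt-Nd4, and mt-Nd6 in KO3 at day 5 (28.02 and 26.3 CPM) stands above all other libraries.

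As WT cells left 2iL, members fell more often than they rose. At day 1 against 2iL 11 were higher and 40 lower (46.1% of all genes were called, 23.5% higher and 22.7% lower), at day 3 10 and 42 (51.2%, 26.8% and 24.4%), and at day 5 10 and 35 (48.2%, 28% and 20.2%), or 3 and 44 under TMM. Among genes with a mean of at least 10 CPM 25.2, 25.4 and 20.7% were called lower at these times. Called lower at each of the 3 times were 25 members, and called higher were Atp5k and Ndufs3. The share of all genes called at each of the 3 times is not given here. Complex IV gave 3 and 8, 0 and 12, and 0 and 10 of 19, with medians of -0.25, -0.49 and -0.27, and its summed level was 4152 to 4466 CPM at day 3 in WT, against 5341 to 5977 CPM in WT in 2iL. Complex I gave 1 and 17, 2 and 16, and 5 and 14 of 35, complex II 0 and 3, 0 and 3, and 0 and 2 of 4, complex III 2 and 4, 3 and 4, and 1 and 3 of 8, and complex V 1 and 4, 1 and 3, and 2 and 3 of 17.

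Among the WT changes, Cox7a1, the heart and muscle form of a complex IV subunit, held 23.95 to 32.2 CPM in 2iL, 4.75 to 8.93 at day 1, 4.37 to 7.91 at day 3 and 6.11 to 12.96 at day 5, and fell by 1.92, 1.95 and 1.34 (adjusted p = 1.43e-06 at day 5). The abundant Cox6a1 held 271 to 306 CPM at day 3, against 497 to 584 CPM in 2iL, and fell by 0.80, 0.94 (adjusted p = 2.16e-12) and 0.92. Cox4i1, a structural subunit that was not called between depleted and WT cells, fell by 0.53, 0.61 and 0.38 in WT. Cox5a fell by 0.63, 0.79 (adjusted p = 3.93e-10) and 0.73, and Ndufb4 by 1.32 (adjusted p = 4.24e-09), 1.08 and 0.71. Sdhb fell by 0.84 at day 1 (adjusted p = 3.21e-08) and by 0.41 at day 3. Cox7b2 rose by 1.03 at day 1 (adjusted p = 0.00616), a call lost without WT 2iL replicate 1 (0.73, adjusted p = 0.0923), and fell by 2.48 and 3.02 at days 3 and 5. Uqcrh, the hinge protein of complex III, rose by 0.33 and 0.47 at days 1 and 3, and without WT 2iL replicate 2 neither was called (0.14, adjusted p = 0.387, and 0.27, adjusted p = 0.0594). Atp5k rose by 0.37, 0.51 and 0.41, and its calls at day 1 (0.18, adjusted p = 0.259) and day 5 (0.22, adjusted p = 0.152) were lost without WT 2iL replicate 2. Ndufs3 was called at each time, but lost the call at day 1 without WT 2iL replicates 1 or 2 or WT day 1 replicates 1 or 2 (0.40 to 0.44), and at day 3 without WT 2iL replicates 1 or 2 or WT day 3 replicates 1 or 3 (0.35 to 0.39). It rose at day 5 by 0.46, a call lost without WT 2iL replicate 1 (0.41, adjusted p = 0.0904) or 2 (0.41, adjusted p = 0.0855).

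Of the mitochondrial members, mt-Co1 changed by -1.05, -1.31 and -1.249 and mt-Nd5 by -0.85, -0.89 and -1.21 (adjusted p = 5.78e-09 at day 5) in WT. Without WT 2iL replicate 1, the first-listed, all remained called, at -0.76, -1.02 and -0.96 for mt-Co1 and at -0.77, -0.81 and -1.13 for mt-Nd5. The rises of mt-Nd1 (1.199 and 1.14 at days 1 and 3) and mt-Nd2 (1.16 and 1.26) shrank without WT 2iL replicate 1 to 0.31 and 0.25 for mt-Nd1 and to 0.19 and 0.30 for mt-Nd2, none of them called. The calls of mt-Nd1 were also lost, at 1.07 to 1.17, without WT replicate 3 of day 1 or replicates 1, 3 or 4 of day 3. Those of mt-Nd2 were lost, at 1.13 to 1.202, without any WT replicate of day 1 or replicates 3 or 4 of day 3. In the depleted lines 9 members were higher and 52 lower at day 1 (52.5% of all genes called, 25.7% and 26.8%), 3 and 59 at day 3 (55.2%, 29.1% and 26.1%), and 7 and 56 at day 5 (55.6%, 29.6% and 26%). Among genes with a mean of at least 10 CPM 29.3, 27.9 and 26.8% were called lower at these times. Called lower at all 3 times were 45 members, mt-Nd4 (-0.62, -0.82 and -0.90) among them. The share of all genes called lower at all 3 times is not given here. The 45 also hold Cox8c, which passed the filter through depleted 2iL libraries alone, and Cox8b, which reached 1 CPM in every depleted 2iL library. Without the first-listed 2iL library of each line mt-Nd4 changed by -0.87, -1.07 and -1.15. Its day 1 call was lost, at -0.65 to -0.51, without any 1 of KO3 2iL replicates 2 and 3, KO3 day 1 replicates 2 to 4, KO2 2iL replicates 2 and 3 and KO2 day 1 replicates 1, 2 and 4. Its day 3 call was lost without KO3 2iL replicate 3 (-0.70) or KO3 day 3 replicate 2 (-0.78).

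Whether the course differed between depleted and WT cells was tested by itself. The difference was called in the positive direction for 3 members and in the negative for 5 at day 1 (10.3% of all genes called, 5.28% and 5.02%), for 1 and 12 at day 3 (16.7%, 9.26% and 7.42%), and for 4 and 21 at day 5 (20.7%, 8.82% and 11.8%). Cox8c is counted in the 5 and the 21, but it passed the filter through depleted 2iL libraries alone, so that its calls carry no weight. The members called were 8.16% and 13.3% of the 98 at days 1 and 3, below the shares of all genes, and 25.5% at day 5. Among genes with a mean of at least 10 CPM the shares were 12, 18.9 and 24.4%, so that the day 5 share of the members lay near that of such genes. The 8 calls at day 1 became 5 without WT 2iL replicate 2 or without WT day 1 replicate 1, and the 13 at day 3 became 20 without WT 2iL replicate 3. Ndufv3 differed by -0.88 ± 0.13 at day 3 (adjusted p = 2.88e-06) and -0.91 ± 0.13 at day 5 (1.68e-06). Atp5e differed by -0.64 (adjusted p = 0.00458) and -0.76 (0.000659) at days 3 and 5, and Ndufaf7 by -1.09 at day 5. Cox7b2 differed by -1.83 ± 0.39 at day 1 (adjusted p = 0.000798), and Cox6a2 by -2.35 ± 0.55 at day 5 (0.00177). On the positive side stood Sdhb at day 1 (0.50 ± 0.14, adjusted p = 0.0121), mt-Co1 and mt-Nd5 at day 1 (1.00, adjusted p = 0.00142, and 0.80, adjusted p = 0.00288, or 0.67 and 0.68 without the first-listed 2iL library of each line) and Ndufa5 at day 5 (0.75 ± 0.13, adjusted p = 3.54e-05).

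The lines KO3 and KO2 differed from each other mainly once in AloXR. In 2iL 6 members were higher and 5 lower in KO3, or 8 and 3 under TMM (9.15% of all genes called, 3.42% higher and 5.73% lower). The 5 lower include Cox8c, which passed the filter through libraries of these same 2iL groups alone. At day 1 the counts were 6 and 36, or 1 and 36 when centred on neighbours (23.2%, 12.1% and 11.1%). At day 3 they were 10 and 14 (10.2%, 6.66% and 3.56%), but 7 and 17 under TMM and 0 and 12 when centred, so that no higher call was left relative to neighbours. At day 5 the counts were 4 and 37 (18%, 10.7% and 7.26%). Among genes with a mean of at least 10 CPM 5.18, 17, 7.92 and 12% were higher and 5.84, 13.5, 5.32 and 10.3% lower in KO3 at the 4 times. In all, 11, 42, 24 and 41 members were called. Leaving out 1 of the KO3 libraries of day 3 or day 5 sets a single library, assumed to vary like those of the other groups, against KO2. At day 3 the count was 5 without KO3 replicate 1 and 8 without KO3 replicate 2, at day 5 it was 16 without KO3 replicate 1 and 24 without KO3 replicate 2, and in 2iL it was 6, 5 and 18 without KO3 replicate 1, 2 or 3 and 7 without KO2 replicate 3. Nuclear medians were 0.00, -0.24, -0.11 and -0.31, and mitochondrial medians -0.16, 0.55, 0.38 and 0.63. Against WT taken alone, KO3 gave 3 higher and 17 lower, 7 and 40, 4 and 38, and 8 and 49 (16.3, 23.1, 23.3 and 31.3% of all genes called), and KO2 9 and 18, 9 and 19, 5 and 34, and 7 and 26 (22.3, 19.4, 21 and 24.6%). These comparisons share the WT libraries.

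**Figure D5:**
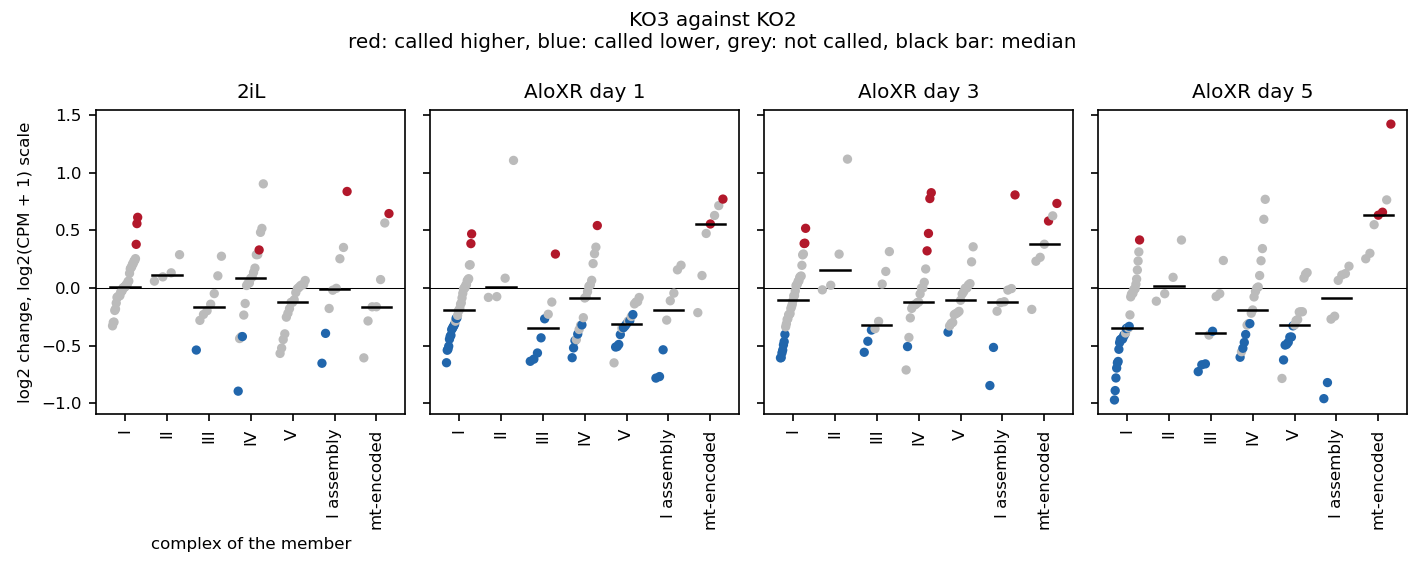
Log2 change of each member in KO3 against KO2, by complex and genome, in 4 panels by time, with red called higher, blue called lower, grey not called and black bars for medians. The medians of complexes I, III and V lie below 0 at days 1 and 5 while that of the mitochondrial members lies above. Single members such as Ndufv2 of complex I lie above 0 on these days.

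Lower in KO3 than in KO2 at each AloXR time were 12 members, among them Uqcrc2, Uqcrq, Uqcr10, Ndufb10, Ndufv1, Ndufv3, Ndufc2, Cox7a2 and Atp5mpl. The share of all genes lower at each AloXR time is not given here. Ndufc2, a membrane-arm subunit, held 112.8 and 124 CPM in KO3 at day 5, against 226 to 243 CPM in KO2 (-0.97 ± 0.12, adjusted p = 6.44e-08), where WT held 207 to 238 CPM. KO3 thus stood apart from both other lines. Its day 3 call was lost without KO3 replicate 1 (-0.49, adjusted p = 0.0676). Ndufv3 was lower by 0.65 (adjusted p = 2.33e-06), 0.61 (0.000617) and 0.78 (7.65e-06) at days 1, 3 and 5. Uqcrc2 was lower by 0.56 (adjusted p = 1.97e-06), 0.37 (0.0169) and 0.67 (9.13e-06), the day 3 call being lost without KO3 replicate 1 (-0.32) or 2 (-0.41). Uqcrq, a small subunit of complex III, was lower by 0.62, 0.46 and 0.66, its day 3 call being lost without KO3 replicate 1 (-0.31, adjusted p = 0.351), as was that of Uqcr10 (-0.46, adjusted p = 0.0976, against -0.56 with all libraries). Other calls of this list were likewise lost. At day 3, Ndufb10 was not called without KO3 replicate 2 (-0.46), Ndufv1 without KO3 replicate 1 (-0.47) or 2 (-0.46), Cox7a2 without KO3 replicate 1 (-0.46), and Atp5mpl without either KO3 replicate or KO2 replicates 1, 2 or 3 (-0.43 to -0.32). At day 1 Ndufv1 was not called without KO3 replicates 3 or 4 or KO2 replicate 4 (-0.27 to -0.26), and at day 5 Cox7a2 was not called without KO3 replicate 1 (-0.37).

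Higher in KO3 at every time were Ndufv2 and mt-Nd5. Ndufv2 was higher by 0.61, 0.47, 0.52 and 0.42, of which 0.46 (adjusted p = 0.00907), 0.24 (0.0996), 0.29 (0.175) and 0.30 (0.101) were left relative to its neighbours. Its day 3 call was also lost without KO3 replicate 2 (0.43, adjusted p = 0.15), and its day 5 call without KO3 replicate 1 (0.40, adjusted p = 0.133) or 2 (0.43, adjusted p = 0.0965). The gene mt-Nd5 was higher by 0.65, 0.77 (adjusted p = 6.65e-05), 0.58 and 0.63, and in 2iL by 0.53 (adjusted p = 0.134) without the first-listed library of each line. Its day 3 call was lost without KO3 replicate 1 (0.51) or 2 (0.65) or KO2 replicate 2 (0.50) or 3 (0.54), and its day 5 call without KO3 replicate 1 (0.66) or 2 (0.60). The gene mt-Nd6 was higher by 1.42 at day 5 (adjusted p = 0.00644), a call lost without KO3 replicate 1 (1.38, adjusted p = 0.0821) or 2 (1.47, adjusted p = 0.0551). Beside these differences, the summed level of 8 primitive endoderm markers was 328 to 401 CPM in KO3 and 44.95 to 64.1 CPM in KO2 at day 5, against 36.8 to 42.5 CPM in WT, with no marker below 1 CPM in every library. The 8 trophoblast markers, of which Elf5 was below 1 CPM in every library, summed at day 5 to 67.5 to 79.0 CPM in KO3 and 22.7 to 32.1 CPM in KO2, against 14.8 to 19.5 CPM in WT. In 2iL their sums were higher in every line, at 82.1 to 111 CPM in KO3, 116 to 136 CPM in KO2 and 106 to 135 CPM in WT. The 8 fibroblast or feeder markers summed at day 3 to 40.1 to 43.4 CPM in KO3 and 74.5 to 124 CPM in KO2, against 30.1 to 35.1 CPM in WT. Naive markers summed to 1288 to 2012 CPM in KO3 and 1670 to 1723 CPM in KO2 in 2iL, against 2326 to 2656 CPM in WT. The 6 formative markers summed to 2203 to 2413 CPM in KO3 and 2472 to 2857 CPM in KO2 at day 1, against 3554 to 4131 CPM in WT. At day 3 they summed to 2979 to 2984 CPM in KO3 and 2861 to 3140 CPM in KO2, against 3716 to 4109 CPM in WT. At day 5 KO2 (2169 to 3166 CPM) overlapped WT (2281 to 2616 CPM), and KO3 held 2937 to 3039 CPM. The part of these markers in the results was not tested.

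Other genes of the pathway were counted in the same comparisons, where 11.2, 9.75, 14.6 and 14% of all genes were called higher and 10.4, 10.1, 11.2 and 17.4% lower in the depleted lines at the 4 times. Mitochondrial ribosomal proteins, which build the ribosome that translates the mitochondrial members, were higher for 4, 2, 4 and 8 and lower for 7, 20, 21 and 12 of 77 in the depleted lines at the 4 times. The shares lower were 9.09, 26, 27.3 and 15.6%, near those of all genes in 2iL and at day 5. In WT against 2iL they were higher for 35, 27 and 14 (45.5, 35.1 and 18.2%) and lower for 7, 14 and 15 (9.09, 18.2 and 19.5%). Tricarboxylic acid cycle enzymes gave 0, 0, 0 and 1 higher and 6, 2, 3 and 4 lower of 14 (42.9, 14.3, 21.4 and 28.6% lower), with Sucla2 lower throughout (-1.03, -0.65, -0.80 and -0.75) and Fh1, the fumarase, by 0.34, 0.33, 0.49 and 0.29. Glycolytic genes gave 0, 1, 1 and 0 higher and 5, 9, 11 and 17 lower of 21 (23.8, 42.9, 52.4 and 81% lower), including the glucose transporters Slc2a3 (-2.37 ± 0.34, adjusted p = 2.99e-06) and Slc2a1 (-1.78, adjusted p = 5.33e-07) at day 5. Assembly factors outside the symbol pattern gave 2, 1, 1 and 5 higher and 3, 7, 14 and 11 lower of 41 (7.32, 17.1, 34.1 and 26.8% lower), with Tmem70, an ATP synthase assembly factor, lower at every time (-0.48, -0.70, -0.89 and -0.80) and Cox20, a chaperone of the mt-Co2 product, higher from day 1 (1.45, 0.89 and 1.23). Regulators of mitochondrial transcription gave 1, 2, 3 and 2 higher and 1, 3, 6 and 4 lower of 26 (3.85, 11.5, 23.1 and 15.4% lower), with the coactivator Ppargc1b lower by 0.49, 0.69 and 1.02 at days 1, 3 and 5 and the transcription factor Tfb2m higher by 0.92 and 0.93 at days 3 and 5.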

How the data were processed

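QuantSeq 3′ mRNA sequencing gave 41 libraries, grouped by the line and medium the labels give. Per the submitters' processing notes, the tools were STAR 2.7.6a and featureCounts 2.0.1 of the Subread package, with GRCm38. The deposited values are CPM (each column sums to 1000000). Their steps gave whole reads for 100% of 766190 values above 0 (tolerance 0.01 reads), at a depth of 3424064 to 5736053 reads per library (median 4581394). A count of 0 allows up to 3 reads, or 0.523 to 0.876 CPM, covering counting error only.

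The 16967 genes that reached 1 CPM in 3 or more libraries were fitted on log2(CPM + 1) with limma 3.58.1 in R 4.3.3 (12 group means over all libraries, 29 residual degrees of freedom, empirical Bayes with trend and robust variances, Benjamini-Hochberg over all genes, 17 comparisons). Calls needed an adjusted p under 0.05 and, where the depleted lines were averaged, both lines in the same direction. Errors are standard errors unless called SD. No set test was run. On simulated data for the depleted lines against WT at day 5 (16967 genes, dispersion 0.02) the fit found 33 of 50 genes with a 1.5-fold change. Of 50 with a 2-fold change it found 49, and of 50 with a 1.25-fold change it found 6. Some changes of 1.5-fold were thus missed, and a member that was not called may still differ by that much. Members whose libraries spread more widely than in this simulation, such as mt-Nd1 in 2iL, may differ by more without a call. The fit called 5 of 16767 unchanged genes.

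Named genes were Esrrb and Esrra, every mitochondrial member, up to 2 called members per direction, complex and comparison with the largest change (group mean at least 5 CPM), isoform pairs, and the highest and lowest member of each complex. The members and lists were chosen with earlier results of these data known. Gene positions are GENCODE M21 on GRCm38, and promoters RefSeq GRCm38.p6. Alternatives were a pseudocount of 5 CPM, no filter, TMM scaling, scaling to reads outside the mitochondrial genome, edgeR 4.0.16 quasi-likelihood on the recovered reads, centring each member on its 50 nearest measured genes, and leaving out each library or the third-listed 2iL library of each line. Leaving out the first-listed 2iL library of each line was added after the data were seen.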

Additional observations from a re-analysis of the deposited data

Results flagged for a closer look

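Among 42 items, tested in the 7 groups of 4 libraries each, 8 of 294 groups held a library far from the other 3, by Dixon's 95% critical value for the gap over the group's range. Chance gives about 1 in 20 groups. The summed nuclear level in WT at day 5 reached 19777 CPM in 1 library, against 19008 to 19054 CPM in the other 3. In WT at day 1, mt-Nd2 reached 2198 CPM in 1 library (2015 to 2020 in the others) and Cox5a reached 624 CPM (584 to 588 in the others). In WT at day 5, Uqcrc2 reached 354 CPM in 1 library (337 to 340 in the others) and Atp5c1 reached 463 CPM (400.2 to 404 in the others). Cox7c in WT at day 3 had 1 library at 691 CPM (749 to 755 in the others). Cox5a in KO2 at day 5 had 1 library at 446 CPM (546 to 567 in the others). Cox6a2 in KO2 at day 5 had 1 library at 0 CPM (1.77 to 2.00 in the others), below the limit that a count of 0 allows.

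The change on leaving 2iL differed between depleted and WT cells for 8 members at day 1, 13 at day 3 and 25 at day 5 (8.16, 13.3 and 25.5% of the members, where 10.3, 16.7 and 20.7% of all genes were called), by the interaction term in limma with Benjamini-Hochberg adjustment. Among genes with a mean of at least 10 CPM 12, 18.9 and 24.4% were called. Cox8c, counted at days 1 and 5, passed the filter through depleted 2iL libraries alone. Positive values mean a more positive change in the depleted lines. At day 1 the differences on the log2 scale were 1.00 for mt-Co1, 0.80 for mt-Nd5, 0.50 for Sdhb, -0.44 for Ndufs8, -0.41 for Ndufv3, -1.71 for Cox6a2 and -1.83 for Cox7b2. At day 3 they were 0.78 for mt-Co1, -0.52 for Ndufa1, -0.60 for Ndufa2, -1.10 for Ndufaf5, -0.72 for Ndufaf7, -0.64 for Ndufb2, -0.88 for Ndufv3, -0.36 for Atp5c1 and -0.64 for Atp5e. At day 5 they were 1.26 for mt-Nd6, 0.75 for Ndufa5, -0.65 for Ndufa1, -0.54 for Ndufa2, -1.01 for Ndufaf3, -0.98 for Ndufaf5, -1.09 for Ndufaf7, -0.53 for Ndufb2, -0.91 for Ndufv3, -2.35 for Cox6a2 and -0.76 for Atp5e. Several of these were lost on leaving out 1 library. For mt-Co1 at day 3 this was WT 2iL replicate 1 (0.50, adjusted p = 0.115) or 2 (0.68, adjusted p = 0.0584), and it was 0.45 (adjusted p = 0.178) without the first-listed 2iL library of each line. For Ndufs8 at day 1 it was WT 2iL replicate 2 (-0.41, adjusted p = 0.0733) or WT day 1 replicate 1 (-0.38, adjusted p = 0.0699). For Ndufaf7 at day 3 it was WT 2iL replicate 3 (-0.57, adjusted p = 0.0725). For mt-Nd6 at day 5 it was KO2 2iL replicate 1 (0.98), KO3 day 5 replicate 1 (1.24), WT 2iL replicates 2 (0.82) or 3 (1.22) or WT day 5 replicate 2 (1.09). For Ndufv3 at day 1 it was KO3 2iL replicate 2, KO3 day 1 replicate 4, WT 2iL replicates 1 or 2 or WT day 1 replicates 1 or 4 (-0.43 to -0.34). For Cox6a2 at day 1 it was any of 9 libraries, KO3 2iL replicates 1 and 2, KO2 2iL replicates 1 and 2, WT 2iL replicates 2 and 3 and WT day 1 replicates 1, 2 and 3 (-1.81 to -1.41).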

How the results depend on the processing

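No paired analysis was possible because the labels carry no replicate numbers that pair libraries across lines. Under the settings other than single left-out libraries, counts of called members kept within 1.5 times of those reported except for the following. With the first-listed 2iL library of each line left out, the difference between courses at day 1 gave 5 and KO3 against KO2 in 2iL gave 4. With the third-listed left out, the difference between courses at day 3 gave 23. Centred on neighbours, KO3 against KO2 gave 6 in 2iL and 12 at day 3. The cause was not tested. Leaving out 1 library at a time gave 21 to 33, 24 to 44, 36 to 52 and 42 to 55 calls for the depleted lines against WT at the 4 times. It gave 42 to 55, 40 to 56 and 37 to 48 for the WT course, 51 to 61, 57 to 65 and 57 to 65 for the depleted course, 5 to 11, 9 to 20 and 21 to 29 for the difference between courses, and 5 to 18, 33 to 44, 5 to 23 and 16 to 45 for KO3 against KO2. Splits of higher and lower calls that moved by over 10 percentage points are given beside their counts above. The quasi-likelihood test of edgeR on the recovered reads called 25, 34, 54 and 43 members for the depleted lines against WT.

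Among the named members, signs reversed in mitochondrial genes and, for KO3 against KO2 at day 3 when centred, in Ndufa5 (-0.082), and 1 reversed value was itself called, mt-Nd2 in WT at day 5 without the first-listed 2iL libraries (-0.73, adjusted p = 0.0274). That setting also gave mt-Nd4 -0.049 for the depleted lines against WT in 2iL, and in WT mt-Cytb -0.16 and -0.32 at days 1 and 3, mt-Nd1 -0.52 and mt-Nd6 -0.49 at day 5. Without the third-listed 2iL libraries WT gave mt-Cytb 0.14 at day 5 and mt-Nd4 0.19 and 0.11 at days 1 and 3. Scaled to reads outside the mitochondrial genome, the depleted lines against WT gave mt-Nd2 0.0044 at day 3 and mt-Nd5 0.0050 at day 5, and WT gave mt-Nd6 -0.0097 at day 5. TMM gave mt-Nd5 0.051 for the depleted lines against WT and mt-Nd6 -0.11 in WT at day 5, and a pseudocount of 5 CPM gave the WT value of mt-Nd6 at day 5 as -0.037. The edgeR test gave mt-Nd5 0.049 for the depleted lines against WT at day 5, and mt-Nd1 -0.31, mt-Nd2 -0.46 and mt-Nd6 -0.28 in WT at day 5. With 1 library left out, values that changed sign for the depleted lines against WT ran from -0.30 to 0.75 (mt-Nd4) and -0.24 to 0.70 (mt-Nd6) in 2iL, -0.14 to 0.019 (mt-Nd4) at day 1, -0.028 to 0.14 (mt-Co1), -0.20 to 0.12 (mt-Nd2) and -0.22 to 0.037 (mt-Nd5) at day 3, and -0.028 to 0.28 (mt-Nd4) and -0.095 to 0.088 (mt-Nd5) at day 5. In WT they ran from -0.16 to 0.89, -0.32 to 0.73 and -0.91 to 0.14 for mt-Cytb, -0.86 to 0.19 and -0.94 to 0.11 at days 1 and 3 for mt-Nd4, -0.62 to 0.32, -0.70 to 0.24 and -0.49 to 0.45 for mt-Nd6, -0.52 to 1.13 for mt-Nd1 at day 5 and -0.73 to 1.02 for mt-Nd2 at day 5. The cause of these reversals was not tested. The gene lists outside the members were fitted with all libraries alone. Members near the limit that a count of 0 allows, such as Cox8c and Atp5g2, cannot show small changes at this depth.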

Other observations

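Among the other genes of the pathway, the mitochondrial ribosomal proteins Mrpl52 (-1.204, -1.13, -1.04 and -0.54) and Mrpl57 (-0.74, -1.04, -0.84 and -1.37) were lower in the depleted lines at all 4 times, and Mrps6 was higher at days 1, 3 and 5 (1.09, 0.75 and 0.76; limma log2 changes). In WT cells Mrpl12 rose by 1.09 and 1.2003 at days 1 and 3 against 2iL, and Mrps34 by 0.93, 1.06 and 0.87. In 2iL, the lactate dehydrogenase subunit Ldhb (-3.98, adjusted p = 6.08e-16 in limma), the hexokinase Hk1 (-1.97) and the isocitrate dehydrogenase Idh2 (-1.29) were lower in the depleted lines. Nubpl, which delivers iron-sulphur clusters to complex I, fell by 0.74, 0.68 and 1.32 in the depleted lines. Cycs, the cytochrome c that carries electrons between complexes III and IV, rose by 0.47 at day 1 and 0.60 at day 5. Ucp2, an inner membrane carrier, fell by 1.12 in 2iL and by 0.82 at day 5.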
